A study of Mus musculus with 4 samples.

Results

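Carboxylesterases are hydrolases that cleave ester, thioester and amide bonds in drugs, other foreign compounds and lipids, and many of them are made in large amounts in the liver. The genes described here are the 10 mouse carboxylesterases Ces1b, Ces1c, Ces1d, Ces1e, Ces1f, Ces1g, Ces2a, Ces2c, Ces2e and Ces3a, taken as all non-control probes that carry one of these gene names on liver microarrays. They have 10 probes, 1 for each gene, of 56605 probes and 37074 gene names on the array. RNA came from the livers of C57BL/6 wild-type mice labelled as 6 weeks old, in 4 groups. Females received 5 mg/kg/day aristolochic acid I (AAI), the nephrotoxic nitrophenanthrene of Aristolochia plants, males received 2 mg/kg/day AAI, and a corn oil (vehicle) group was kept for each sex. All groups were injected i.p. on 5 days a week for 3 weeks. Equal amounts of RNA from 5 mice were pooled for each group and hybridized to 1 array, so that there was no replicate, no test was made, and every difference is between 2 pools. The doses differed between the sexes, and sex and dose cannot be told apart in any comparison of AAI-treated males with AAI-treated females.

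Most carboxylesterases of the liver are held in the lumen of the endoplasmic reticulum by a retention signal at the end of the protein. Ces1d (triacylglycerol hydrolase) releases fatty acids from stored triglyceride for the assembly of very low density lipoprotein, Ces1f is a close relative with lipase activity, and Ces1g limits the accumulation of lipid in the liver. Ces1e (egasyn) anchors beta-glucuronidase in the endoplasmic reticulum, whereas Ces1c is secreted and is the main esterase of mouse plasma. The Ces2 enzymes favour esters with a large alcohol group and also act on acylglycerols, and Ces2c is known as an acylcarnitine hydrolase. In the mouse the genes lie in 2 clusters on chromosome 8, the Ces1 genes with Ces5a in the first and the Ces2, Ces3 and Ces4a genes in the second, and arose by repeated duplication.

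Because the genes are duplicates, the probe sequences decide which of them a signal can be assigned to. The probes are 60 bases long, and 30 bases of some are shown as the files give them, with the longest run shared with the probe of another carboxylesterase in capitals. The probes of Ces2c and its neighbour Ces2b shared 24 bases, and matched at 31 of 34 positions when laid over each other, which is the longest shared run of any of the 10 genes. The probes of Ces1b and Ces1c shared 14 bases and matched at 49 of 55 positions.
Ces2c: atcTGTCACCTCAGTCTTTGAGCTTTCatg
Ces2b: attTGTCACCTCAGTCTTTGAGCTTTCctg
Ces1b: catggCGATGAAATCTTCTctgtatttggg
Ces1c: CGATGAAATCTTCTttgtattcggggctcc
Ces3a: agtccagcacATTAATAAAgctcttcagag
Ces2e: atgtatggAAGTGACTTcttgcctttcata
Ces1f: agatggatcttggaggatcCTGAAGAACtt
Ces1g: gactttttgtcAGATATTGtttccaaaatc
The last 4, printed because their genes showed the other large differences, shared no more than 9 bases with any other carboxylesterase probe. Probes were compared only with probes, which can lie at other places of their transcripts. Whether a probe also matches the transcript of another carboxylesterase was not examined for any of the 10 genes. On mouse genome build mm9 the probes lie on chromosome 8, at chr8:107582236-107582295 for Ces3a, chr8:107378258-107378317 for Ces2c, chr8:107458508-107458567 for Ces2e and chr8:107263207-107263266 for Ces2a on the plus strand, and at chr8:95780225-95780284 for Ces1f and chr8:95826722-95826781 for Ces1g on the minus strand. The mapped spans of the Ces1b and Ces1c probes, 2934 and 3452 bases, are longer than the probes, which therefore cross an exon junction. For Ces2c with Ces2b, and for Ces1b with Ces1c, a part of the signal may come from the transcript of the other gene.

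The 10 probes were well above background on all 4 arrays, and none was saturated or marked as an outlier. Signals are given as log2 of the processed intensity after quantile normalization, and compare a gene only with itself across arrays, since a signal also depends on the probe. For an estimate of the technical error, the SD of the log2 ratios was taken over the probes of each gene that has several, and its median over 8618 to 9128 genes was 0.252 for AAI over corn oil in females, 0.238 in males and 0.234 between the sexes with corn oil. This SD does not cover differences between mice or between arrays. Since each carboxylesterase of the 10 had a single probe, no spread between probes could be computed for these genes themselves. The labelled tissue was checked with 10 hepatocyte markers, which were above background on all arrays and had summed linear signals between 2029498 and 2338077. Quantile normalization gives the brightest probes nearly the same value on every array, as for Alb with 19.12 to 19.15. Like sums therefore do not show a like share of hepatocyte RNA. Markers of other tissues differed between the pools, most of all with AAI. The summed signal of 12 skeletal muscle markers was 1333 with corn oil and 48241 with AAI in females, and 5967 and 384473 in males. For 9 fat markers it was 5533 and 6735 in females against 9556 and 90905 in males, and for 6 adrenal markers 2388 and 2263 against 3998 and 30887. Of the muscle markers, 11 of 12 in females and 12 of 12 in males were at least 2-fold higher with AAI. The adrenal and fat markers at least 2-fold higher with AAI numbered 5 of 6 and 7 of 9 in males, and 0 of 6 and 3 of 8 measured in females. None of 7 measured intestine markers passed 2-fold in either sex, and of kidney markers 1 of 6 measured was at least 2-fold lower in males. With corn oil, 10 of 12 muscle, 4 of 6 adrenal and 4 of 9 fat markers were at least 2-fold higher in males than in females. The part of this other RNA in the values below was not tested. The log2 ratios of the 10 hepatocyte markers for AAI over corn oil lay between -0.37 and 0.75 in females and between -0.43 and 0.57 in males.

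In males, 4 of the 10 carboxylesterases were at least 2-fold lower with AAI and none was 2-fold higher, whereas 4.59% and 3.51% of all 30539 genes measured were 2-fold lower and higher. The 4 genes were Ces3a, Ces2c, Ces2e and Ces1f. In RNA of whole tissue, fewer cells that express a gene and less RNA per cell cannot be told apart. In females, who received the larger dose, Ces3a was the only one of the 10 past 2-fold, and it was lower, against a background of 3.09% lower and 1.37% higher among 31682 genes. The median log2 ratio of the 10 genes was -0.67 in males and 0.00 in females, where the medians of all genes were 0.00 and 0.04.

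**Figure D1:**
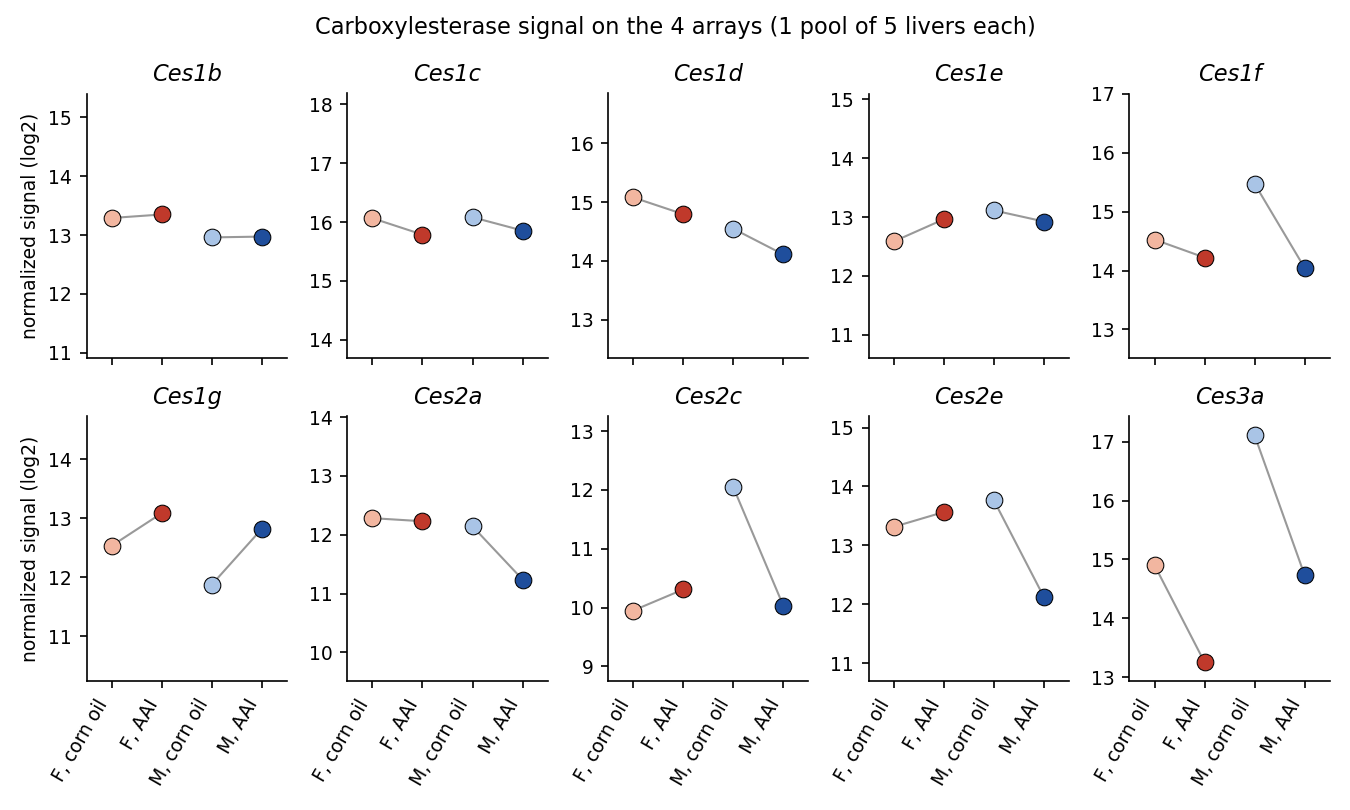
Normalized log2 signal (vertical axis, the same span of 4.5 log2 units in each panel) of the 10 carboxylesterases on the 4 arrays, 1 point for each pool of 5 livers, with grey lines joining corn oil to AAI within a sex. Ces3a is lower with AAI in both sexes, Ces2c, Ces2e and Ces1f are at least 2-fold lower in males alone, and Ces1g is higher in both.

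Ces3a, a liver carboxylesterase also called esterase 31, had the widest range over the 4 arrays, 3.85 log2 units. In females its signal was 14.90 with corn oil and 13.25 with AAI. In males it was 17.11 with corn oil and 14.73 with AAI. The control males were highest, the control females and the AAI-treated males came next and differed by 0.17, less than the SD between probes, and the AAI-treated females were lowest. AAI-treated females had 31.9% of the signal of their control, a log2 ratio of -1.65, and AAI-treated males had 19.2%, a log2 ratio of -2.38. In the lists of genes above background on both arrays, ordered from the lowest ratio, Ces3a was number 149 of 29714 in females and number 115 of 28433 in males. It was at least 2-fold lower in both sexes, as were 189 (0.628%) of the 30115 genes measured in both.

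Of the 10 genes, Ces2c showed the widest gap between the AAI ratios of the 2 sexes, which received different doses. In females its signal was 9.95 with corn oil and 10.31 with AAI, and in males 12.05 with corn oil and 10.03 with AAI. The pool of corn oil-treated males stood apart from the other 3, which lay within 0.36 of each other. The ratio of AAI to corn oil was 4.04-fold lower in males, a log2 ratio of -2.01, and was 0.36 in females, beyond the SD between probes in the other direction. Since the Ces2c probe shares 24 bases with that of Ces2b, the signals of Ces2b are given beside it, 9.71 and 9.93 in corn oil- and AAI-treated females and 11.42 and 9.79 in corn oil- and AAI-treated males. Both probes had the same order of corn oil-treated males over the other 3 pools, and the Ces2b log2 ratios were 0.22 in females and -1.62 in males. How much of each signal belongs to which gene cannot be read from these probes.

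Ces2e, which is made in liver and intestine, had signals of 13.31 and 13.56 in corn oil- and AAI-treated females and of 13.76 and 12.12 in corn oil- and AAI-treated males. Here the AAI-treated males stood apart from the other pools, with a signal 3.13-fold lower than that of their control. In females the log2 ratio was 0.25, about the SD between probes, and 0.15 without the trend correction of the intensities. Ces2a, whose enzyme hydrolyses acylglycerols in the liver, was 12.28 and 12.23 in corn oil- and AAI-treated females and 12.14 and 11.24 in corn oil- and AAI-treated males. Its log2 ratio of -0.90 in males was short of 2-fold, and that in females, -0.05, was within the SD between probes. All 3 Ces2 genes of the set were thus lower with AAI in males, by 1.87-fold to 4.04-fold, and none was 2-fold different in females.

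Among the Ces1 genes with a role in triglyceride, Ces1f was the only one past 2-fold. Its signal was 14.53 with corn oil and 14.22 with AAI in females, and 15.47 with corn oil and 14.04 with AAI in males. Again the corn oil-treated males were highest, and the AAI-treated males were 2.69-fold lower. The AAI ratio in females was -0.31, and without the trend correction of the intensities it was -0.18, within the SD between probes. Ces1d was 15.08 and 14.80 in corn oil- and AAI-treated females and 14.55 and 14.11 in corn oil- and AAI-treated males, with log2 ratios of -0.28 and -0.44 that exceeded the SD between probes but not 2-fold. Without the trend correction of the intensities, the Ces1d ratio in females was -0.23, within this SD. Ces1f and Ces1d are also expressed in fat, whose markers were higher in the AAI-treated male pool.

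Ces1g was the one gene higher with AAI in both sexes beyond the SD between probes. Its signals were 12.53 and 13.09 in corn oil- and AAI-treated females and 11.87 and 12.82 in corn oil- and AAI-treated males. The AAI pools were the highest, and differed by slightly more than the SD between probes, and the corn oil-treated males were lowest. AAI-treated females had 1.47-fold and AAI-treated males 1.93-fold the signal of their control, log2 ratios of 0.55 and 0.95. Ordered from the highest ratio, Ces1g was number 2542 of 29714 genes in females and number 936 of 28433 in males.

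The remaining Ces1 genes stayed within 2-fold with AAI. Ces1c, the plasma esterase, was 16.06 and 15.79 in corn oil- and AAI-treated females and 16.08 and 15.85 in corn oil- and AAI-treated males. Its log2 ratios were -0.28 and -0.23, of which that in males was within the SD between probes. Without the trend correction of the intensities, the Ces1c ratio in females was -0.21, also within this SD. Ces1e, the anchor of beta-glucuronidase, was 12.58 and 12.96 in females and 13.11 and 12.92 in males. Its ratio of 0.38 in females was beyond the SD between probes, and that of -0.19 in males was within it. Ces1b had the smallest ratios of the 10 genes in males, 0.01, with signals of 12.96 and 12.98, and was 13.29 and 13.35 in females.

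**Figure D2:**
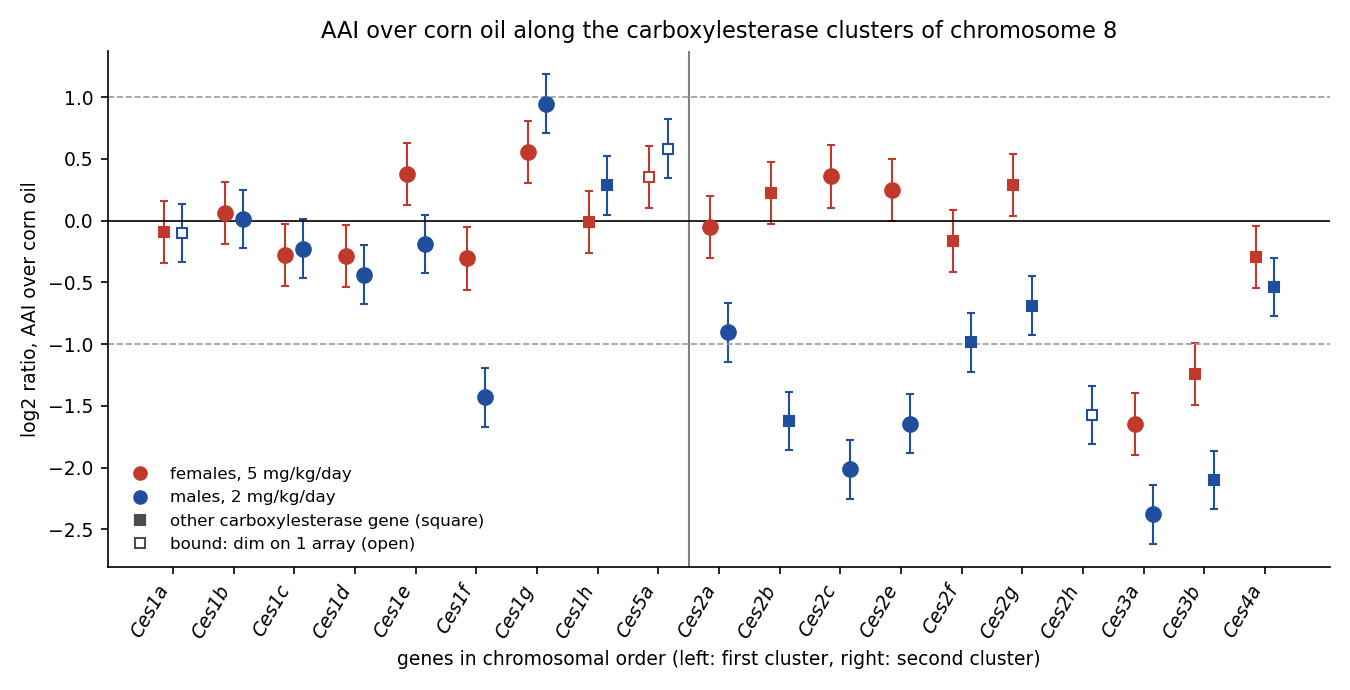
Log2 ratio of AAI over corn oil (vertical axis) for every carboxylesterase gene with a measured value, in the order of the genes along chromosome 8, with females in red and males in blue. Circles are the 10 genes, squares the other carboxylesterase genes, open symbols bounds for a probe that was dim on 1 array, and bars the median SD between probes of 1 gene. Each gene is shown by its brightest probe. In the second cluster all male values lie below 0, from -0.54 for Ces4a to -2.38 for Ces3a, whereas only Ces3a and Ces3b are 2-fold lower in females.

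Among the other carboxylesterase genes, Ces2b, Ces2h and Ces3b were also 2-fold lower with AAI in males. Of 10 such genes listed, 9 were on the array, and 8 were measured in females and 9 in males. These were 3 of 9 in males, and none was 2-fold higher, against 4.59% lower and 3.51% higher among all genes. In females 1 of 8 was lower, Ces3b, the neighbour of Ces3a, against 3.09% of all genes. The signals of Ces3b were 12.04 and 10.79 in corn oil- and AAI-treated females and 13.88 and 11.78 in corn oil- and AAI-treated males, with the same order of the 4 pools as Ces3a. Its AAI ratios were -1.24 and -2.10. Ces2h was above background in corn oil-treated males alone, and its signal there, 6.28, was at least 2.98-fold higher than in AAI-treated males and at least 3.83-fold higher than in corn oil-treated females. Ces2f and Ces2g had log2 ratios of -0.99 and -0.69 in males and of -0.16 and 0.29 in females, and a second, dimmer Ces2f probe went the other way, with 0.24 in males and 0.35 in females. Ces4a had -0.54 in males and -0.29 in females. In the first cluster, Ces1h had 0.29 in males and -0.01 in females, and Ces1a and Ces5a were dim on at least 1 array.

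**Figure D3:**
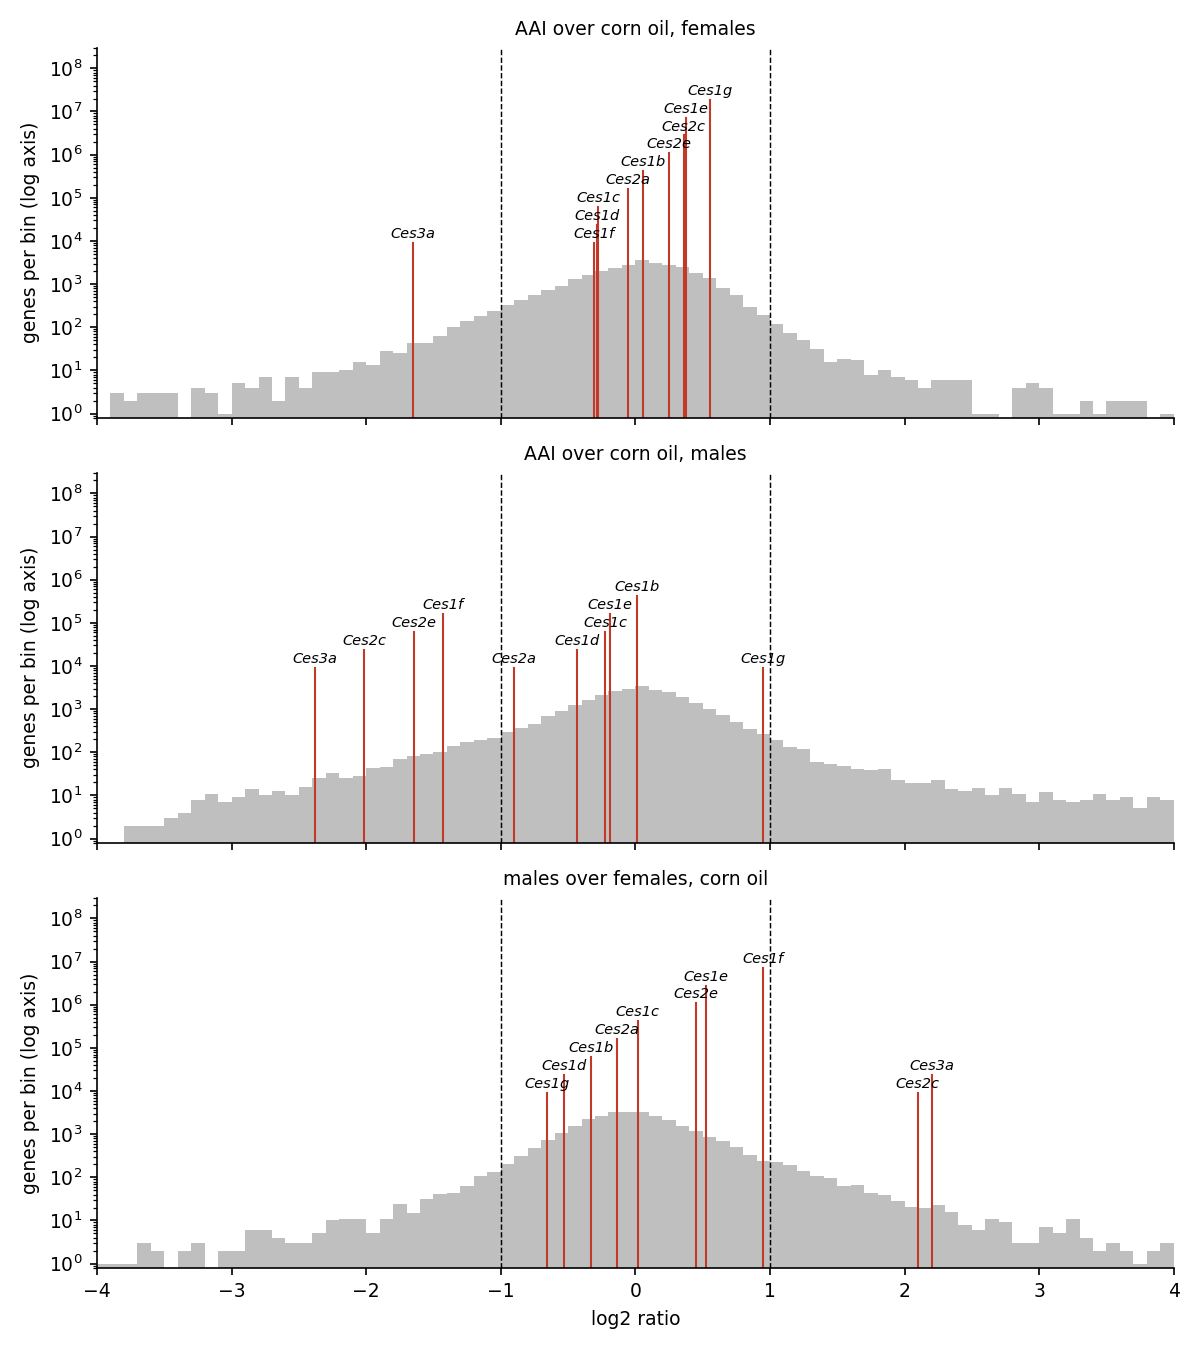
Number of genes per bin of 0.1 log2 units (vertical axis, logarithmic) against the log2 ratio, for all genes measured with a ratio between -4 and 4, with red lines at the 10 carboxylesterases and dashed lines at 2-fold. In males 4 of the 10 lie left of the lower dashed line, in females only Ces3a does, and between the sexes with corn oil Ces2c and Ces3a lie right of the upper one.

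With corn oil, 2 of the 10 carboxylesterases were at least 2-fold higher in males than in females and none was 2-fold lower, against 3.83% and 1.86% of 30891 genes measured. Ces3a was 4.61-fold higher in males, with a log2 ratio of 2.20, and Ces2c was 4.28-fold higher, with 2.10. Muscle, adrenal and fat markers were also higher in the control males, and their part in these differences was not tested. Ordered from the highest male over female ratio, Ces3a and Ces2c were numbers 115 and 132 of 29111 genes. Ces1f followed with a log2 ratio of 0.95, short of 2-fold, and then Ces1e with 0.53 and Ces2e with 0.45. Ces1g, Ces1d and Ces1b were higher in females, with -0.66, -0.53 and -0.33, while Ces2a and Ces1c differed by less than the SD between probes. The array of corn oil-treated males enters both this ratio and the AAI ratio of males, so that the male-high signal of Ces3a, Ces2c and Ces1f and their lower signal with AAI in males are not independent measurements.

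Among AAI-treated mice, Ces3a was still 2.78-fold higher in males. Ces2c and Ces1f, which were male-high with corn oil, had male over female log2 ratios of -0.28 and -0.18 in the 2 AAI pools. That of Ces2c was slightly more than the SD between probes found with corn oil, and that of Ces1f was less. Ces2e and Ces2a were lower in AAI-treated males than in AAI-treated females, by 2.73-fold and 1.99-fold. This comparison sets 2 mg/kg/day against 5 mg/kg/day AAI and was chosen after the values were seen.

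**Figure D4:**
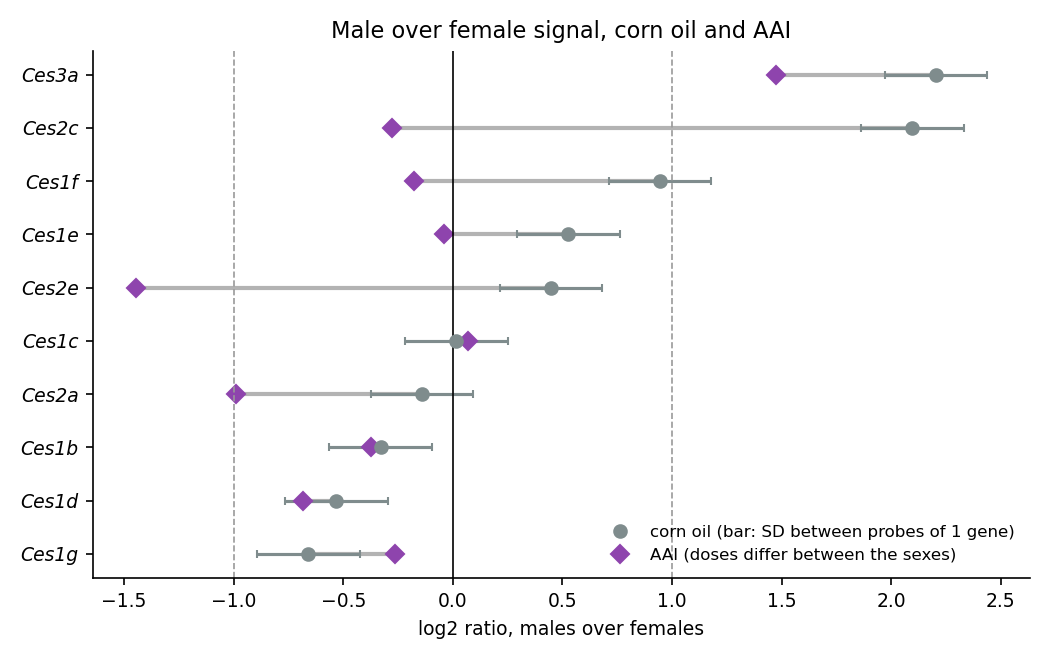
Log2 ratio of males over females (horizontal axis) for the 10 carboxylesterases with corn oil (grey circles, with the median SD between probes of 1 gene as bars) and with AAI (purple diamonds, at different doses in the 2 sexes). Ces3a and Ces2c lie near 2 with corn oil, and with AAI only Ces3a stays above 1 while Ces2e lies below -1.

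The starts of the Ces2 genes can be compared by sequence, since Ces2a, Ces2c and Ces2e were all lower with AAI in males. The 250 bases before each start are from RefSeq, build GRCm38.p6, plus strand, at chr8:104733753-104734002 for Ces2a, chr8:104846818-104847067 for Ces2c and chr8:104926010-104926259 for Ces2e. Capitals mark runs of at least 10 bases that occur in one of the other 2.
Ces2a: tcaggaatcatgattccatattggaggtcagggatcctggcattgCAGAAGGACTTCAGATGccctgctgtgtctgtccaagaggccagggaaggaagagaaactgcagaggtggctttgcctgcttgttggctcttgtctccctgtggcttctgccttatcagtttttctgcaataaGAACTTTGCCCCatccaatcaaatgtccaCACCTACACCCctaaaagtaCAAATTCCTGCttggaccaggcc
Ces2c: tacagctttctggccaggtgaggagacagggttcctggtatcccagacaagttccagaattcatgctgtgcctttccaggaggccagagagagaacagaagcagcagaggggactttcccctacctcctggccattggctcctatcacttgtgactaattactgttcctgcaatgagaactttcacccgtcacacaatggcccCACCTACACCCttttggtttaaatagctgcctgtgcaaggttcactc
Ces2e: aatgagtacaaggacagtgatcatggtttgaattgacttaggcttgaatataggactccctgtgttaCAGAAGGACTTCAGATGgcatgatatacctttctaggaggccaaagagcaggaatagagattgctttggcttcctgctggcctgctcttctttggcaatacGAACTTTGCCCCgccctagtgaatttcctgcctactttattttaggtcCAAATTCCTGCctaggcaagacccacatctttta
The longest run, of 17 bases, was shared by Ces2a and Ces2e and occurred in 2 of all 32851 promoters of the table. The 11 bases shared by Ces2a and Ces2c occurred in 8 promoters, and Ces2c and Ces2e shared no run longer than 9 bases. Duplicated genes can share such runs by descent. No carboxylesterase that differed less was compared, and whether the runs bear on the signals was not tested. Both strands of the 300-base promoters, which add 50 bases after the start, were also searched for the core of the antioxidant response element bound by Nrf2 (TGACNNNGC, in 12.4% of all promoters), the nuclear receptor half-site (AGGTCA, 16.3%), the STAT palindrome (TTCNNNGAA, 8.30%) and the TATA box (TATAAA, 13.6%). Of the 8 promoter entries for the 10 genes, 0 held the first or the third, 1 held the half-site (Ces2a, at position -226) and 1 held TATAAA on the opposite strand (Ces1g, at -26). Ces1d, Ces1f and Ces3a had no promoter entry.

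Genes that work beside carboxylesterases were counted from lists. Of 29 other ester and lipid hydrolases, 0 were 2-fold lower and 1 was higher with AAI in females, and 1 was lower and 1 was higher in males, where the median log2 ratio was -0.22. Lpl, the lipoprotein lipase of muscle and fat, was 12.18 in AAI-treated against 10.39 in corn oil-treated males, and 10.25 against 9.90 in females, in the pools with more of the signal of muscle and fat markers. Lipe, the hormone-sensitive lipase, was 2.46-fold lower with AAI in males by its brightest probe, while another Lipe probe above background on all 4 arrays had a log2 ratio of 0.15 there. With corn oil, the brightest probe was 2.22-fold higher in males than in females, and the other had a log2 ratio of 0.60. The array of corn oil-treated males enters both comparisons. The remaining Lipe probe was above background in corn oil-treated males alone, with a signal of 7.42, and so was also lower with AAI in males. Pnpla7, a lysophospholipase, was 2.18-fold higher in females. Of 12 genes of triglyceride storage and lipoprotein assembly none passed 2-fold with AAI in either sex, and 1 was higher in males with corn oil, Apob, the protein of very low density lipoprotein, by 2.66-fold. Among the 3 KDEL receptors and beta-glucuronidase, which share the retention route of these enzymes, Kdelr3 alone passed 2-fold with AAI, in males, where it was 4.95 with corn oil and 5.97 with AAI. This log2 ratio of 1.02 did not pass when the background was corrected with normexp, and in females the signals were 5.38 and 6.00. Of 9 transcription factors known to act on carboxylesterase genes, Nr1i2, which encodes the pregnane X receptor, was 2.33-fold lower with AAI in females and had a log2 ratio of -0.28 in males, and the other 8 stayed within 2-fold with AAI in either sex and between the sexes with corn oil.

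The genes with the pattern most like that of Ces3a over the 4 arrays were taken as the 3 with the smallest distance between log2 signals, each centred on its mean, among 28224 genes above background on all arrays. They were Nrep at a distance of 0.249, C9 at 0.273 and C6 at 0.405. C9 and C6, components of the terminal complement complex, had AAI log2 ratios of -1.47 and -1.09 in females and of -2.23 and -2.50 in males, and male over female ratios of 2.00 and 2.55 with corn oil. Nrep had -1.41, -2.24 and 2.41. These values rest on 4 arrays.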

How the data were processed

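Liver RNA pooled from 5 mice for each of 4 groups was hybridized to 1 Agilent single-color array per group, all on 1 slide. Per the labels and file headers, the authors read the scans in Feature Extraction 10.5.1.1, and each intensity was deposited before and after background subtraction and trend correction; the trend correction was not applied on the array of AAI-treated females. The whole-series table deposited by the authors holds their quantile-normalized intensity and served as an alternative. Probe coordinates were annotated on mm9. Here, log2 values of the processed intensity were quantile normalized over 56495 probes without outlier spots, and the brightest probe stood for a gene. A log2 ratio of 1 was called in either direction when 1 of both arrays was above background, with a bound where the other was not. Normexp used limma (offset 50). The code was tested on simulated data. All 10 accessions matched the RefSeq table. The members and lists were chosen with earlier results of these data known. Named genes were the 10 members, the other carboxylesterases, up to 4 genes past 2-fold per list, and the 3 genes nearest to the member of widest range. Arrays hold no counts, and their number limits the precision.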

Additional observations from a re-analysis of the deposited data

Results flagged for a closer look

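Ces2c was the gene of the 10 whose AAI ratio pointed in opposite directions in the sexes, beyond the SD between probes in each. Its log2 ratio was -2.01 in males (2 mg/kg/day) and 0.36 in females (5 mg/kg/day), a difference of -2.37. The difference was not tested, since each sex had 1 array per treatment, and its probe shares 24 bases with that of Ces2b.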

How the results depend on the processing

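The values were recomputed under 8 alternatives. Each of the 10 genes had 1 probe, above background on all arrays. A mean over the probes of a gene and no filter on dim probes therefore could not move their values, and these alternatives are included in the counts below. The authors' values were quantile normalized too. Of 69 counts and medians of the 10 genes under them, 66 stayed within 1.5 times or within the SD between probes. The number 2-fold higher with AAI in males, 0, was 1 with the normexp background and 1 without the multiplicative trend correction, where Ces1g crossed 2-fold at up to 1.04, and under both Ces2a, at down to -1.04, made the number lower 5 in place of 4. The median male over female ratio with corn oil, 0.23, was -0.0140 with 75th percentile scaling. Of 210 single ratios, 205 moved by less than the SD between probes, none past 2-fold changed sign, and 5 smaller ones did, of Ces1c and Ces1b. Ratios of Ces3a lay between -1.74 and -1.63 in females and between -2.54 and -2.23 in males, and those of Ces2c in males between -2.03 and -1.93. At 3-fold, Ces3a, Ces2c and Ces2e were lower in males and Ces3a in females. The share of all genes past 3-fold was not set beside this. No paired analysis was possible because each group has 1 array. Differences between mice could not be estimated.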
